A study of Mus musculus with 17 samples.

Results

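The genes described here encode the soluble glutathione S-transferases (GST), the UDP-glucuronosyltransferases (UGT) and the cytosolic sulfotransferases (SULT) of the mouse small-intestinal epithelium. They were chosen by symbol from the deposited expression table, and a gene was kept where its TPM (a transcript level corrected for length and scaled to a fixed library total) was at least 1 in at least 2 of 17 libraries. Of 53278 symbols in the table, 69 matched these family names, 8 of them were marked as pseudogenes and left out, and 33 of the remaining 61 passed the minimum. These 33 were 18 of 21 GST genes, 9 of 19 UGT genes and 6 of 21 SULT genes, and the minimum as such was passed by 15066 genes in all. Of the 28 genes below the minimum, 5 were listed at 0 in every library. Gsta2, Ugt1a2 and Ugt1a6b lay just outside, with 1 library each at the minimum and highest values of 1.36, 1.05 and 1.00 TPM. Gsta3 and Ugt1a6a lay just inside, with 3 libraries each, all of them from day 14 for Gsta3 and all from day 14 under the IgA -/- dam for Ugt1a6a. The 4 libraries at the minimum for Ugt1a5 were all from the IgA -/- dam. These 3 genes passed the minimum only through groups where they were high, and tests of those groups against others are not independent of that minimum.

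Conjugation is the step at which a cell joins a foreign or internal compound to a water-soluble group. GST enzymes attach glutathione to electrophiles, UGT enzymes in the endoplasmic reticulum attach glucuronic acid from UDP-glucuronate, and SULT enzymes attach sulfate from the donor PAPS. In the intestine the enterocytes carry much of this activity, since they meet compounds from milk, food and bile before the liver does.

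The libraries came from sorted small-intestinal epithelial cells (EpCAM+ CD45- Ter119-) of mice on the C57BL/6 strain. Every pup was Igha -/+, from a cross of C57BL/6 with IgA -/- mice, and so had 1 intact allele for its own IgA. The nursing mother was either C57BL/6 (called the B6 dam) or IgA -/-, which provides no maternal IgA, and cells were taken at day of life 14, 24 or 42. The study asked what maternal IgA by itself does to the developing epithelium. Each of the 6 groups of dam and day held 3 libraries, except the B6 dam at day 24, which held 2. Shared mothers, litters or handling days are not given in the labels, and p-values therefore cover only the variation among these samples, which may be technical. Sample names carry dates of unstated meaning, which differ by dam at days 14 and 24 and, except between days 24 and 42 under the IgA -/- dam, by age. Where they differ, the date and the comparison cannot be told apart. The names also begin with F under the IgA -/- dam and with M under the B6 dam at every age. The meaning of these letters is unstated, and what they mark cannot be told apart from the dam.

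Between 8477226 and 18305347 reads per library were recovered from the TPM values. One small gene model, Gm23935, took 40.2% to 61.9% of a library's TPM and the mitochondrial RNAs 13.7% to 34.6%. Levels are therefore given as scaled TPM, the deposited TPM divided by a median-of-ratios size factor (0.479 to 1.81). On the scale as deposited, the medians of the log2 changes over all genes varied between comparisons: 0.33 for the dams at day 14, -0.38 at day 24 and 0.03 at day 42. For the IgA -/- dam the medians were -1.02 (day 24 over 14), 0.53 (day 42 over 24) and -0.48 (day 42 over 14), and for the B6 dam -0.29, 0.12 and -0.17. After scaling all of them lay between -0.04 and 0.01, which follows from how the size factors are set and is no check of the scaling. Epcam lay between 248.5 and 536.9 scaled TPM and Vil1, a brush border gene, between 85.1 and 418.7. Ptprc, the gene of CD45, was at most 0.739, and Alb, a hepatocyte gene, at most 0.241.

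Both B6 dam groups after day 14 held a library that stood apart. The summed level of the 33 genes was 594.4 scaled TPM in replicate 2 at day 24 against 230.4 in replicate 1, and 492.9 in replicate 1 at day 42 against 211.6 and 249.1 in replicates 2 and 3. The other 12 libraries lay between 166.6 and 299.5. Replicate 2 at day 24 was the highest of the 17 libraries for 18 of the 33 genes. Enterocyte genes moved with this: a list of 7 (Ada, Alpi, Apoa4, Arg2, Sis, Slc2a2 and Treh, none at 0 in any library) summed to 2792 against 175.8 scaled TPM at day 24, and to 969.3 against 100.9 and 136.3 at day 42. Alpi, the intestinal alkaline phosphatase, was at 310.6 against 21.2 scaled TPM at day 24. A stem cell list of 4 genes (Lgr5, Olfm4, Ascl2 and Smoc2) went the other way at day 24, at 420.3 against 864.3. Genes of the distal small intestine (8) summed to 433.4 against 110.5 scaled TPM at day 24, and to 428.4 against 110.3 and 105.9 at day 42. Those of the proximal small intestine (8) summed to 1343 against 495.8 at day 24, and to 719.8 against 401.1 and 778.8 at day 42. Paneth cell genes (7) summed to 11250 against 821.7 and 2039 at day 42, and to 966.7 against 592.3 at day 24. The part of these differences in the results was not tested, and in bulk RNA fewer cells of a type and less RNA per cell cannot be told apart. Results that rest on these libraries are given with and without them.

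**Figure D1:**
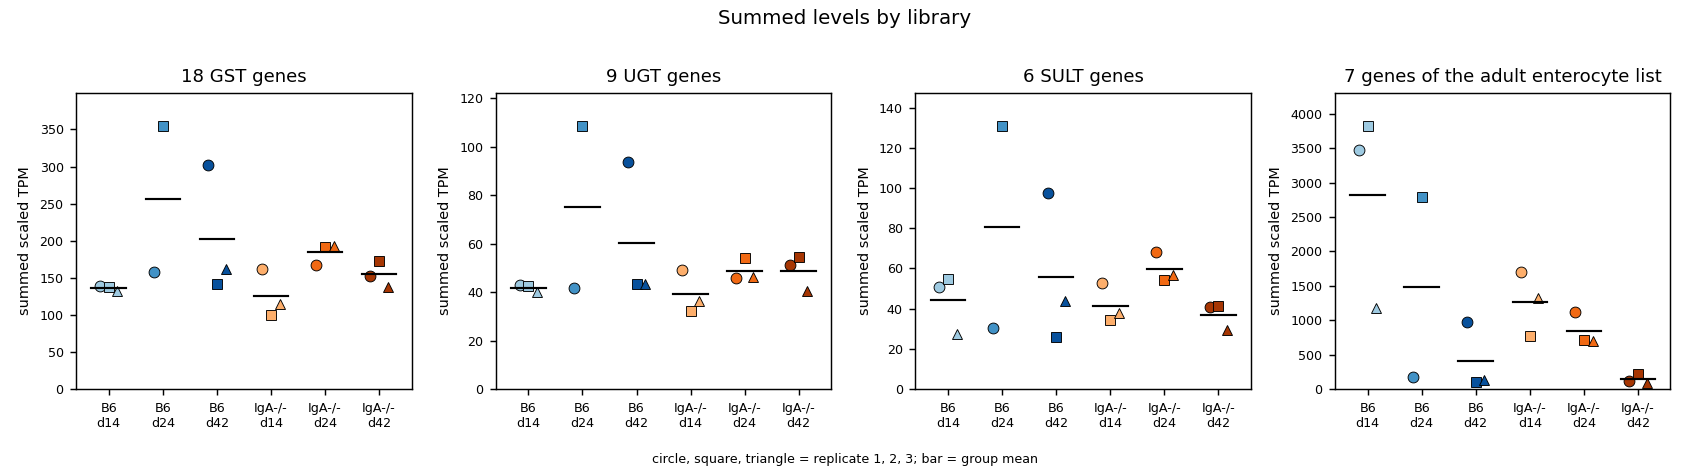
Summed scaled TPM of the 18 GST, 9 UGT and 6 SULT genes and of 7 enterocyte genes (y axes) in the 6 groups of dam and day (x axes), with 1 point per library and a bar at the group mean. In all 3 families B6 dam day 24 replicate 2 (square) and day 42 replicate 1 (circle) are the 2 highest points; on the enterocyte axis day 14 is also high in the B6 dam group, at 1177 to 3826.

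Of the 3 pi-class Gstp genes, which are neighbours and close relatives, Gstp3 alone passed the tests described further on, so the sequences before their starts are shown. Gstp1, Gstp2 and Gstp3 lie side by side at chr19:4035407-4059569 (mm10). The 250 bases before each RefSeq start (GRCm38.p6, minus strand, 5′ to 3′) were at chr19:4037913-4038162 for Gstp1, chr19:4042222-4042471 for Gstp2 and chr19:4059448-4059697 for Gstp3. Capitals mark GCGTG, the core of the xenobiotic response element at which the aryl hydrocarbon receptor binds.
Gstp1: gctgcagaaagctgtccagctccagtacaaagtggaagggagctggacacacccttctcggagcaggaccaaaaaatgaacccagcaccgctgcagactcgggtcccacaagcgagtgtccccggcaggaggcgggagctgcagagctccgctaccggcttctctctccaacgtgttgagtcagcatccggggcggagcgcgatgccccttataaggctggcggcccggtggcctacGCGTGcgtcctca
Gstp2: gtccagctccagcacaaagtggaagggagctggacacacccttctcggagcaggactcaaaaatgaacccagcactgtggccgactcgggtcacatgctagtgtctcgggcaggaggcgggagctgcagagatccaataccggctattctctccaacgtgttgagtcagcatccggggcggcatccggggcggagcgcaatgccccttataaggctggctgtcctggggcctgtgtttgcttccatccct
Gstp3: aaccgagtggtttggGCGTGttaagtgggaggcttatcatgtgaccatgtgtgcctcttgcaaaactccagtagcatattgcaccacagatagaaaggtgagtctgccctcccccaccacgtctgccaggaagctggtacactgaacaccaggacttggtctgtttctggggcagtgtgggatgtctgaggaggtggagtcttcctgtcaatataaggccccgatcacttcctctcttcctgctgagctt
Over 300-base windows that also held 50 bases after the start, Gstp1 and Gstp2 matched at 77.1% of aligned positions. Gstp3 matched Gstp1 at 52.3% and Gstp2 at 50.8%. Promoter windows were found for 31 of the 33 genes. Searched on both strands, the XRE core GCGTG was in 11 of their 39 windows and in 32.4% of 32851 RefSeq windows. The antioxidant response core TGACNNNGC was in 3 (12.4% of all windows), TATAAA in 5 (13.6%) and the HNF4 site CAAAGTCCA in 1 (0.475%). The Gstp1 and Gstp3 windows held GCGTG, and the Gstp2 window held none of the 4 motifs. These matches describe letters only.

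Between day 14 and the later days a small set of conjugation genes moved. Gstp3 fell and Gstt1 rose in all 4 comparisons of day 24 or 42 with day 14. Ugt2a3 and Gstt3 rose in 3 of them, Gsta1, Gsta4, Gstt2 and Sult2b1 in 2, and Gsto1 in 1. Ugt2b5 and Ugt1a6a were lower in 2, in both cases under the IgA -/- dam. Changes were tested with limma on log2(scaled TPM + 1) in 1 fit over all libraries, and a gene passed at a Benjamini-Hochberg adjusted p under 0.05 over 15066 genes. Between days 14 and 24, 7 of 33 genes (21.2%) passed with the B6 dam (6 up, 1 down), where 13.6% of all genes did (7.54% higher, 6.10% lower). The IgA -/- dam gave 9 of 33 (27.3%; 6 up, 3 down), where 16.9% of all genes passed (8.12% higher, 8.80% lower). At day 42 against day 14 the count was 6 of 33 for the B6 dam (18.2%; 5 up, 1 down), beside 13.7% of all genes (7.28% higher, 6.44% lower). It was 5 of 33 for the IgA -/- dam (15.2%; 2 up, 3 down), beside 16.4% (8.09% higher, 8.28% lower). Both counts for the IgA -/- dam include Ugt1a6a, which had passed the minimum only through the day 14 libraries of that dam. Between days 24 and 42 no conjugation gene passed with either dam, where 0.0265% (0.0133% higher, 0.0133% lower) and 2.75% (1.57% higher, 1.18% lower) of all genes did. At an unadjusted p under 0.05 these last counts were 3 and 8, and among all genes 1014 and 3493.

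In total 11 of the 33 genes passed in at least 1 of the 4 comparisons with day 14, and 22 in none. This pooled count was not made over all genes, so nothing is read from it about the 33. The median log2 fold change of the 33 was 0.46 from day 14 to 24 and 0.25 from day 14 to 42 with the B6 dam, and 0.40 and 0.23 with the IgA -/- dam, where the medians of all genes lay between -0.04 and 0.00. On the deposited scale the splits of genes that passed at days 24 and 42 with the B6 dam were 5 higher and 2 lower (6 and 1 after scaling) and 3 higher and 2 lower (5 and 1). Those were 21.2% and 15.2% of the 33, beside 8.61% (1.62% higher, 6.99% lower) and 9.11% (2.78% higher, 6.33% lower) of all genes. For the IgA -/- dam they were 2 higher and 23 lower (6 and 3 after scaling) at day 24, or 75.8% of the 33, beside 83.8% of all genes (0.863% higher, 82.9% lower). At day 42 they were 2 higher and 8 lower (2 and 3), or 30.3%, beside 40.7% (1.77% higher, 38.9% lower). Between days 24 and 42 the deposited scale gave 12 higher genes under the IgA -/- dam, 36.4% of the 33, beside 49.3% of all genes (48.5% higher, 0.863% lower). With both libraries that stand apart left out, 4 genes passed at day 24 under the B6 dam, beside 8.40% of all genes (3.93% higher, 4.47% lower), and 9 at day 42, beside 15.2% (7.71% higher, 7.49% lower).

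Single libraries also moved these counts. The share of all genes that passed was not counted in fits without 1 library. A move in the counts below therefore cannot be told apart from a move over all genes, and nothing is read from it. Leaving out either B6 dam day 24 library also leaves only 1 library in that group. The B6 dam count at day 24 was 3 without day 24 replicate 2, 17 without day 24 replicate 1, and 4 without day 14 replicate 1 or 3. At day 42 it was 2 without day 42 replicate 1 and 3 without any 1 library of day 14, and between days 24 and 42 it was 4 without day 24 replicate 1. The IgA -/- dam count at day 24 was 4, 3 and 1 without replicates 1, 2 and 3 of day 14, and 2 and 5 without replicates 2 and 3 of day 24.

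Taking both dams, 5 of the 33 genes did not overlap between day 14 and later, as did 8.48% of all genes: 4 genes had every one of their 11 later libraries above all 6 day 14 libraries (Gstt1, Sult2b1, Ugt2a3 and Ugt2b34), and Gstp3 had every one below. Of all genes, 4.49% were in the first position and 3.99% in the second.

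**Figure D2:**
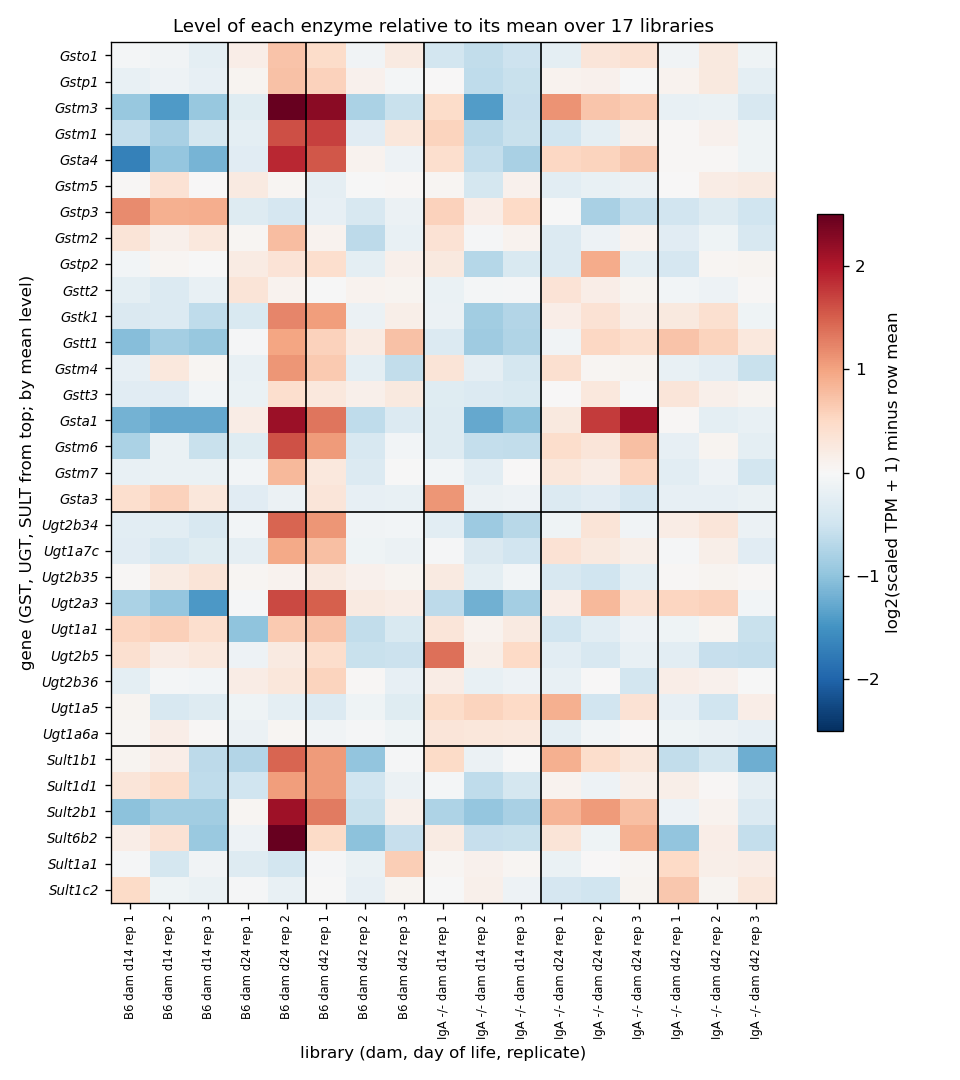
Each row is 1 of the 33 genes, grouped as GST, UGT and SULT and ordered by mean level, and each column 1 of 17 libraries. Colour is log2(scaled TPM + 1) minus the row's mean, red above and blue below. Gstp3 is red or pale red in the 6 day 14 libraries and white or blue elsewhere, and B6 dam day 24 replicate 2 and day 42 replicate 1 are red in most rows.

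Gstp3, a pi-class GST (chr19:4057477-4059569; GENCODE M21 gene positions, mm10), fell from day 14 with both dams. Gstp3 under the B6 dam was at 15.0, 12.2 and 12.3 scaled TPM at day 14, 4.67 and 4.28 at day 24, and 5.12, 4.35 and 5.41 at day 42. Gstp3 under the IgA -/- dam was at 9.63, 6.99 and 8.97 scaled TPM at day 14, 6.06, 3.03 and 3.71 at day 24, and 4.13, 4.66 and 4.05 at day 42. The 6 day 14 libraries lay between 6.99 and 15.0 and the 11 later ones between 3.03 and 6.06, so the ages did not overlap. With the B6 dam the fall to day 24 (limma, log2 fold change -1.37, SE 0.20, adjusted p = 0.000489) and to day 42 (limma, log2 fold change -1.25, SE 0.17, adjusted p = 0.000272) passed in every fit that left out 1 library. The fall under the IgA -/- dam to day 24 (limma, log2 fold change -0.89, SE 0.17, adjusted p = 0.00528) and to day 42 (limma, log2 fold change -0.84, SE 0.17, adjusted p = 0.00567) did as well. The deposited scale gave the same direction and call in all 4. Gstp3 shared no 50-base stretch with another annotated transcript, and its longest coding transcript matched that of Gstp1 at 63.8% of aligned positions, against 90.6% between Gstp1 and Gstp2.

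Neither neighbour of Gstp3 passed between ages. Gstp1 (chr19:4035407-4037985), the broadly expressed pi-class enzyme, had the second-highest mean level of the 33 genes. Gstp1 under the B6 dam was at 31.2, 32.5 and 30.8 scaled TPM at day 14, 37.6 and 59.5 at day 24, and 53.7, 38.7 and 34.2 at day 42. Gstp1 under the IgA -/- dam was at 35.7, 22.7 and 24.06 scaled TPM at day 14, 37.9, 38.2 and 35.5 at day 24, and 37.8, 42.5 and 30.0 at day 42. The highest 2 values were the libraries that stand apart, and no comparison passed on the scaled values (from day 14 to 24, log2 fold change 0.57, adjusted p = 0.127 by limma with the B6 dam and log2 fold change 0.45, adjusted p = 0.150 with the IgA -/- dam). Gstp2 (chr19:4040285-4046023) lay between 1.90 and 8.07 scaled TPM in the 17 libraries and passed in no comparison. Reads of Gstp1 and Gstp2 are hard to separate, since 62.3% and 72.6% of their 50-base stretches also occur in another gene's transcript.

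A share within the 3 Gstp genes does not depend on the scaling of a library. Gstp3 made up 19.3% to 30.2% of the Gstp sum in the 6 day 14 libraries and 6.14% to 12.97% in the 11 later ones, without overlap. Under the B6 dam the share was 30.2, 25.0 and 26.2 percent at day 14, 9.99 and 6.21 at day 24, and 7.98, 9.44 and 12.3 at day 42. Under the IgA -/- dam it was 19.3, 22.1 and 25.1 percent at day 14, 12.97, 6.14 and 8.80 at day 24, and 9.27, 9.13 and 10.6 at day 42. A share of this kind shows that the genes changed unequally and not which of them stayed the same.

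The theta-class genes Gstt1, Gstt2 and Gstt3, whose enzymes act on small halogenated compounds and other electrophiles, lie together on chromosome 10. Gstt1 (chr10:75783813-75798584) rose from day 14. Gstt1 under the B6 dam was at 0.862, 1.16 and 1.04 scaled TPM at day 14, 2.82 and 6.74 at day 24, and 4.83, 3.49 and 5.50 at day 42. Gstt1 under the IgA -/- dam was at 2.09, 1.10 and 1.31 scaled TPM at day 14, 2.69, 4.59 and 4.24 at day 24, and 5.42, 4.73 and 3.66 at day 42. All 6 day 14 libraries (0.862 to 2.09) lay below all 11 later ones (2.69 to 6.74). The rise to day 42 passed with the B6 dam (limma, log2 fold change 1.46, SE 0.25, adjusted p = 0.00119) and the IgA -/- dam (limma, log2 fold change 1.17, SE 0.25, adjusted p = 0.00613), also with each library left out in turn. At day 24 it passed with the B6 dam (limma, log2 fold change 1.43, SE 0.28, adjusted p = 0.00406) but not without day 24 replicate 2 (adjusted p = 0.0673 by limma). The day 24 rise under the IgA -/- dam (limma, log2 fold change 0.95, SE 0.25, adjusted p = 0.0203) was lost without replicate 2 or 3 of day 14 or replicate 2 or 3 of day 24 (adjusted p up to 0.0832). That last change had the opposite sign on the deposited scale (limma, log2 fold change -0.088, adjusted p = 0.733).

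Gstt2 and Gstt3 moved less. Gstt2 under the B6 dam was at 2.87, 2.59 and 3.01 scaled TPM at day 14, 4.72 and 3.82 at day 24, and 3.52, 3.84 and 3.79 at day 42. Gstt2 under the IgA -/- dam was at 3.07, 3.39 and 3.49 scaled TPM at day 14, 4.76, 4.13 and 3.80 at day 24, and 3.35, 3.18 and 3.64 at day 42. In the B6 dam group its day 24 and day 42 libraries lay above the day 14 libraries (limma, log2 fold change 0.46, adjusted p = 0.0107 and log2 fold change 0.30, adjusted p = 0.0447). The day 42 call was lost with any 1 of the 6 libraries left out (adjusted p up to 0.159), and the day 24 call without B6 dam day 24 replicate 1 (adjusted p = 0.0623). The change with the IgA -/- dam did not pass at day 24 (limma, log2 fold change 0.28, adjusted p = 0.0585).

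Gstt3 was at 2.03, 2.01 and 2.49 scaled TPM at day 14, 2.30 and 3.93 at day 24, and 3.39, 3.01 and 3.38 at day 42 with the B6 dam. Gstt3 under the IgA -/- dam was at 1.98, 1.91 and 1.82 scaled TPM at day 14, 2.70, 3.41 and 2.66 at day 24, and 3.54, 2.99 and 2.87 at day 42. The groups did not overlap between days 14 and 42 with either dam, and the rise passed in both (limma, log2 fold change 0.42, adjusted p = 0.0483 and log2 fold change 0.51, adjusted p = 0.0196). The first call was lost in 5 of 6 fits without 1 library, all but the one without B6 dam day 14 replicate 3 (adjusted p up to 0.147), and the second without IgA -/- dam day 14 replicate 2 or 3 or day 42 replicate 1 (up to 0.0842). Already at day 24 it passed with the IgA -/- dam (limma, log2 fold change 0.43, adjusted p = 0.0405), in 1 of 6 fits without 1 library (adjusted p up to 0.140, without IgA -/- dam day 24 replicate 2), and on the deposited scale it was lower there instead (log2 fold change -0.60, adjusted p = 0.00360). Of its 50-base stretches, 26.0% also occur in the overlapping gene Gm20441. Gstt1 made up 15.0% to 29.3% of the summed level of the 3 theta genes in the day 14 libraries and 26.5% to 46.5% later, and these ranges overlap.

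**Figure D3:**
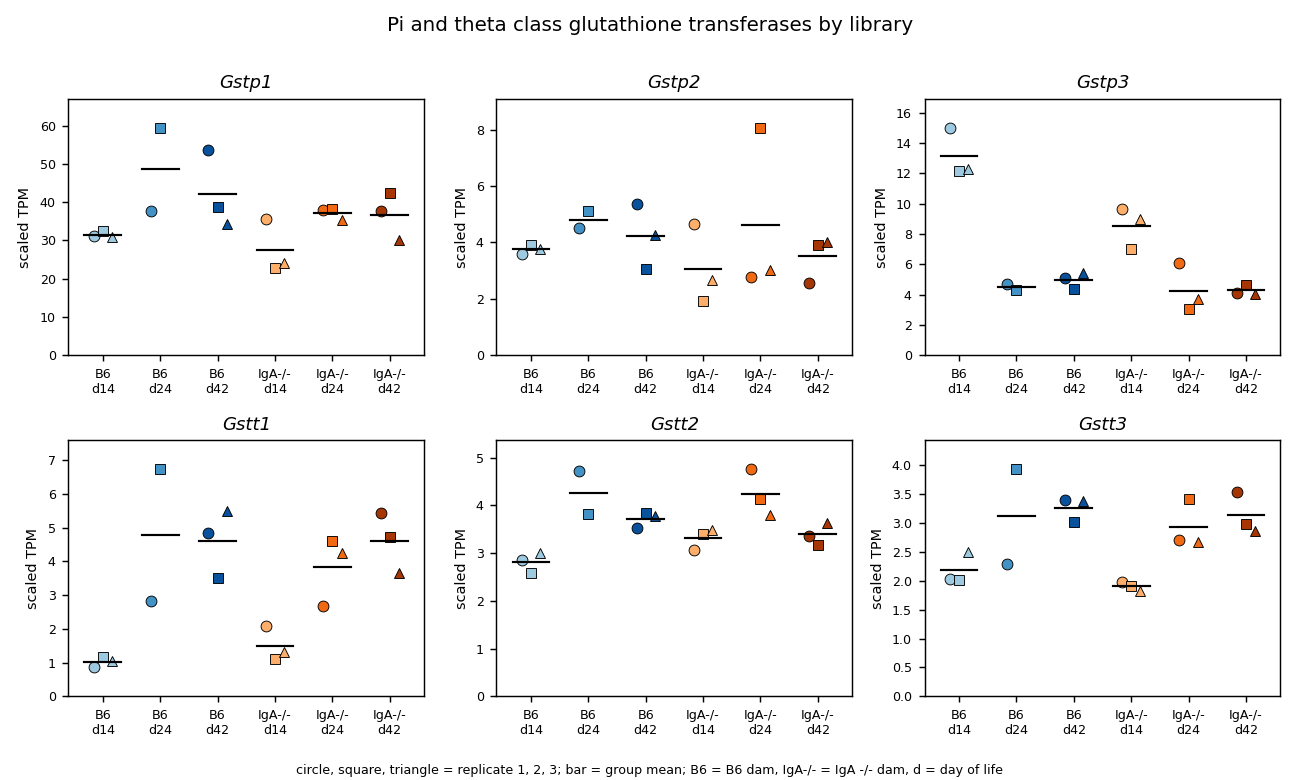
Scaled TPM (y axes, from 0) of the 3 pi-class and 3 theta-class genes in the 6 groups (x axes), with 1 point per library and a bar at the group mean. Gstp3 is high at day 14 with both dams and at or below 6.06 later, Gstt1 is at or below 2.09 at day 14 and at or above 2.69 later, and the day 14 points of Gstp1 and Gstp2 overlap later ones.

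The alpha-class genes lie on chromosomes 9 and 1. Gsta1 (chr9:78230656-78242684), a conjugating enzyme that also reduces lipid peroxides, was at 0.0626, 0 and 0 scaled TPM at day 14, 1.75 and 9.71 at day 24, and 5.09, 0.563 and 0.902 at day 42 with the B6 dam. Gsta1 under the IgA -/- dam was at 0.934, 0 and 0.180 scaled TPM at day 14, 1.86, 7.09 and 9.43 at day 24, and 1.45, 1.04 and 1.11 at day 42. It was below 0.2 in 5 of the 6 day 14 libraries and reached 7.09 to 9.71 in 3 of the 5 day 24 libraries. The day 24 rise passed with the B6 dam (limma, log2 fold change 2.41, SE 0.64, adjusted p = 0.0242) and the IgA -/- dam (limma, log2 fold change 2.24, SE 0.57, adjusted p = 0.0191). These fold changes depend on the pseudocount, since the B6 dam day 14 group held 1 read of Gsta1 in all. The B6 dam call passed only in the fit without day 24 replicate 1; it was lost without replicate 2 of day 24 (adjusted p = 0.290) and without any day 14 library. The IgA -/- dam call was lost without replicate 2 or 3 of either age (adjusted p up to 0.0735). Of its 50-base stretches, 89.7% also occur in another transcript, mostly of Gm3776, which was at 32.9 scaled TPM in B6 dam day 24 replicate 2, so the split of reads between these 2 genes is uncertain.

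Gsta4 (chr9:78182774-78209349), whose enzyme is known for conjugating the lipid aldehyde 4-hydroxynonenal, was at 1.28, 2.79 and 2.28 scaled TPM at day 14, 5.05 and 26.3 at day 24, and 20.7, 6.84 and 5.76 at day 42 with the B6 dam. Gsta4 under the IgA -/- dam was at 8.87, 3.91 and 3.21 scaled TPM at day 14, 9.59, 9.91 and 10.8 at day 24, and 6.54, 6.53 and 5.88 at day 42. Every later library of the B6 dam lay above its day 14 libraries, and the rise passed at day 24 (limma, log2 fold change 2.07, SE 0.57, adjusted p = 0.0278) and at day 42 (limma, log2 fold change 1.78, SE 0.51, adjusted p = 0.0319). It was lost at day 24 without day 24 replicate 2 (adjusted p = 0.359) or without replicate 1 or 3 of day 14, and at day 42 without day 42 replicate 1 (adjusted p = 0.135) or any day 14 library. Without both libraries that stand apart the values were log2 fold change 1.00, adjusted p = 0.141 at day 24 and log2 fold change 1.27, adjusted p = 0.0130 at day 42 by limma. No change of Gsta4 under the IgA -/- dam passed (log2 fold change 0.91, adjusted p = 0.225 at day 24). Gsta3 (chr1:21240589-21265661) was the lowest alpha gene, between 0.0933 and 2.14 scaled TPM, with 0.964, 1.17 and 0.782 scaled TPM at day 14, 0.193 and 0.329 at day 24, and 0.810, 0.259 and 0.288 at day 42 under the B6 dam. It passed in no comparison (limma, log2 fold change -0.64, adjusted p = 0.175 and log2 fold change -0.63, adjusted p = 0.116 at day 24).

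Gsto1 (chr19:47854970-47864790), an omega-class enzyme that reduces dehydroascorbate, had the highest mean level of the 33 genes, 50.7 scaled TPM over the 6 group means. Gsto1 under the B6 dam was at 46.9, 45.1 and 40.6 scaled TPM at day 14, 54.2 and 79.8 at day 24, and 66.5, 45.4 and 56.6 at day 42. Gsto1 under the IgA -/- dam was at 34.9, 31.3 and 33.4 scaled TPM at day 14, 40.8, 59.9 and 62.9 at day 24, and 45.5, 57.5 and 44.5 at day 42. Under the IgA -/- dam the day 24 libraries lay above those of day 14, and the rise passed (limma, log2 fold change 0.68, SE 0.19, adjusted p = 0.0286). That call passed in 1 of 6 fits without 1 library, the one without IgA -/- dam day 24 replicate 1 (adjusted p up to 0.0966). Gsto1 was lower at day 24 instead on the deposited scale (log2 fold change -0.77, adjusted p = 0.00266). Gstk1 (chr6:42245935-42250447), the kappa-class enzyme of mitochondria and peroxisomes, lay between 1.24 and 8.504 scaled TPM. It passed in no comparison (limma, log2 fold change 0.87, adjusted p = 0.180 and log2 fold change 0.81, adjusted p = 0.134 at day 24).

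The 7 mu-class genes lie in 1 cluster on chromosome 3 and passed in no comparison on the scaled values. Gstm3 (chr3:107963696-107969283), the third-highest GST gene by mean level, was at 5.98, 4.05 and 5.96 scaled TPM at day 14, 9.93 and 75.2 at day 24, and 63.3, 6.80 and 8.19 at day 42 with the B6 dam. Gstm3 under the IgA -/- dam was at 17.6, 4.10 and 8.04 scaled TPM at day 14, 28.4, 20.8 and 19.8 at day 24, and 10.8, 10.9 and 9.21 at day 42. The B6 dam libraries that stand apart held 75.2 and 63.3, and the other 15 held 4.05 to 28.4. Its day 24 differences did not pass (limma, log2 fold change 2.21, SE 0.85, adjusted p = 0.105 with the B6 dam, log2 fold change 1.32, SE 0.76, adjusted p = 0.241 with the IgA -/- dam). Gstm5 (chr3:107895821-107898686), in the same cluster, was at 6.65, 8.65 and 6.56 scaled TPM at day 14, 7.81 and 6.80 at day 24, and 5.42, 6.44 and 6.68 at day 42 under the B6 dam and at 6.84, 4.53 and 7.17 scaled TPM at day 14, 5.26, 5.66 and 5.78 at day 24, and 6.63, 7.61 and 7.78 at day 42 under the IgA -/- dam. Its range over the 17 libraries, 4.53 to 8.65, was far narrower than that of Gstm3, and the libraries that stand apart lay inside it.

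Gstm1 (chr3:108012255-108017973) was at 6.74, 5.70 and 7.73 scaled TPM at day 14, 8.97 and 34.9 at day 24, and 37.5, 8.61 and 13.4 at day 42 with the B6 dam and between 6.40 and 16.4 with the IgA -/- dam, and Gstm6 (chr3:107938847-107943749) had its highest values, 7.27 and 4.69, in the same 2 libraries. Gstm2 (chr3:107981702-107986453) was at 7.84, 6.72 and 7.56 scaled TPM at day 14, 6.30 and 11.1 at day 24, and 6.56, 3.47 and 5.19 at day 42 with the B6 dam and at 8.05, 5.90 and 6.48 scaled TPM at day 14, 4.62, 5.52 and 6.51 at day 24, and 4.81, 5.54 and 4.35 at day 42 with the IgA -/- dam. It did not pass at day 42 with the B6 dam (limma, log2 fold change -0.49, adjusted p = 0.139), and was lower with both libraries that stand apart left out (log2 fold change -0.67, adjusted p = 0.0178). Gstm4 (chr3:108040408-108044894) lay between 1.59 and 7.46 scaled TPM and Gstm7 (chr3:107926334-107931817) between 1.10 and 4.05. Part of the 50-base stretches of Gstm1 (23.2%), Gstm3 (28.8%), Gstm6 (11.5%) and Gstm2 (9.36%) also occur in other transcripts.

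**Figure D4:**
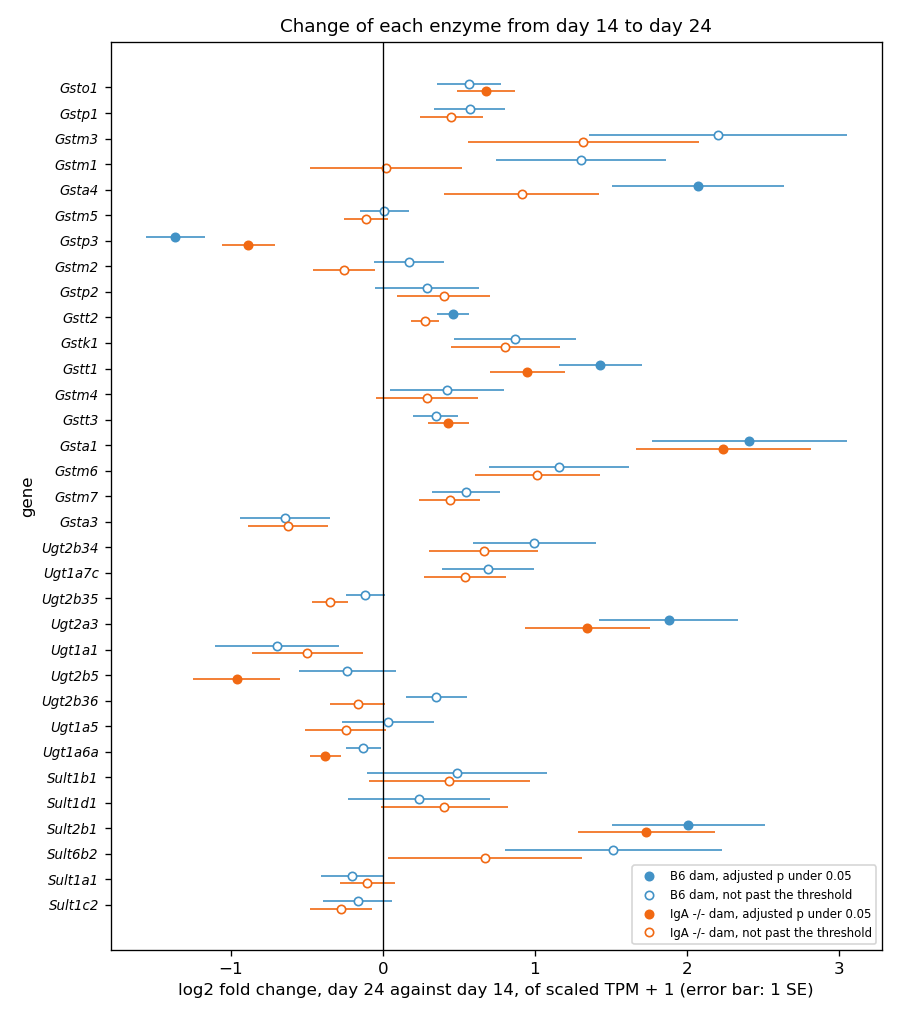
Log2 fold change of scaled TPM + 1 from day 14 to day 24 (x axis, bars of 1 SE) for the 33 genes (y axis) with the B6 dam (blue) and the IgA -/- dam (orange), filled where the adjusted p by limma was under 0.05. Gstp3 lies left of 0 with both dams and Gstt1, Gsta1, Ugt2a3 and Sult2b1 right of it, all filled, while the wide bars of Gstm3 leave it unfilled.

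The UGT genes made up 15.6% to 20.98% of the summed level of the 33 genes in each library. Ugt2b34 (chr5:86889767-86906937) was the most abundant. UGT2B enzymes act on steroids, bile acids and drugs. Ugt2b34 under the B6 dam was at 17.3, 17.2 and 15.6 scaled TPM at day 14, 19.8 and 58.9 at day 24, and 46.3, 19.6 and 19.97 at day 42. Ugt2b34 under the IgA -/- dam was at 17.3, 10.7 and 12.5 scaled TPM at day 14, 19.3, 26.5 and 19.6 at day 24, and 24.08, 26.0 and 18.7 at day 42. All 11 later libraries (18.7 to 58.9) lay above the 6 of day 14 (10.7 to 17.3), yet no comparison passed in the fit (limma, log2 fold change 1.00, adjusted p = 0.123 and log2 fold change 0.66, adjusted p = 0.214 at day 24).

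Ugt2a3 (chr5:87324972-87337195), whose human counterpart glucuronidates bile acids, rose most clearly among the UGT genes. Ugt2a3 under the B6 dam was at 1.95, 1.60 and 0.883 scaled TPM at day 14, 4.02 and 15.1 at day 24, and 13.4, 4.95 and 4.79 at day 42. Ugt2a3 under the IgA -/- dam was at 2.23, 1.22 and 1.84 scaled TPM at day 14, 4.72, 7.90 and 5.55 at day 24, and 6.37, 6.58 and 3.87 at day 42. The day 14 libraries (0.883 to 2.23) and the later ones (3.87 to 15.1) did not overlap. With the B6 dam it passed at day 24 (limma, log2 fold change 1.88, SE 0.46, adjusted p = 0.0153), except without day 24 replicate 2 (adjusted p = 0.227) or day 14 replicate 3, and at day 42 (limma, log2 fold change 1.70, SE 0.41, adjusted p = 0.0130), except without day 42 replicate 1 (adjusted p = 0.0562) or day 14 replicate 3. Without both libraries that stand apart the values were log2 fold change 1.06, adjusted p = 0.0680 and log2 fold change 1.28, adjusted p = 0.00478 by limma. With the IgA -/- dam it passed at day 24 (limma, log2 fold change 1.35, SE 0.41, adjusted p = 0.0389), in 1 of 6 fits without 1 library, the one without IgA -/- dam day 24 replicate 1 (adjusted p up to 0.128), and narrowly missed at day 42 (log2 fold change 1.25, adjusted p = 0.0530).

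Ugt2b5 (chr5:87124960-87140318) fell with the IgA -/- dam. Ugt2b5 under the IgA -/- dam was at 6.01, 1.99 and 2.84 scaled TPM at day 14, 1.26, 1.03 and 1.36 at day 24, and 1.25, 0.813 and 0.797 at day 42. Ugt2b5 under the B6 dam was at 2.54, 2.06 and 2.23 scaled TPM at day 14, 1.46 and 2.15 at day 24, and 2.65, 0.843 and 0.859 at day 42. The IgA -/- dam day 14 libraries, 1 of them far above the other 2, lay above all later ones of that dam (limma, log2 fold change -0.96, SE 0.29, adjusted p = 0.0363 at day 24, log2 fold change -1.15, SE 0.29, adjusted p = 0.0154 at day 42). The day 24 call passed in 1 of 6 fits without 1 library, the one without IgA -/- dam day 14 replicate 2 (adjusted p up to 0.125), and the day 42 call was lost without day 14 replicate 1 or day 42 replicate 2 or 3 (up to 0.0570). With the B6 dam no change passed (limma, log2 fold change -0.23, adjusted p = 0.688 and log2 fold change -0.50, adjusted p = 0.306). The difference between the dams in this change was part of the test over ages described with the dam comparison, which no conjugation gene passed. Of its 50-base stretches, 41.7% also occur in other transcripts, mostly of Ugt2b38.

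Ugt2b35 (chr5:87000860-87013275) stayed within a narrow range. Ugt2b35 under the B6 dam was at 5.54, 6.36 and 7.01 scaled TPM at day 14, 5.66 and 5.79 at day 24, and 6.45, 5.93 and 5.69 at day 42. Ugt2b35 under the IgA -/- dam was at 6.49, 4.39 and 5.12 scaled TPM at day 14, 3.84, 3.53 and 4.43 at day 24, and 5.55, 5.76 and 5.56 at day 42, lowest at day 24. Its values in the 2 libraries that stand apart (5.79 and 6.45) were within the range of the other 15. The dip at day 24 did not pass (limma, log2 fold change -0.35, adjusted p = 0.0556 against day 14 and log2 fold change 0.43, adjusted p = 0.0625 for day 42 against day 24). Ugt2b36 (chr5:87065927-87092555), the lowest Ugt2b gene, was at 0.436, 0.644 and 0.633 scaled TPM at day 14, 0.931 and 1.07 at day 24, and 1.52, 0.737 and 0.482 at day 42 under the B6 dam and at 0.929, 0.509 and 0.556 scaled TPM at day 14, 0.499, 0.714 and 0.246 at day 24, and 0.915, 0.848 and 0.696 at day 42 under the IgA -/- dam, and the ages overlapped.

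The Ugt1a genes each join a first exon of their own to exons that the whole locus on chromosome 1 shares, so 50.3% to 59.5% of each gene's exon length overlaps another gene on the same strand and their levels cannot be fully separated. Ugt1a7c (chr1:88095062-88220002) was the highest of them. Ugt1a7c under the B6 dam was at 6.62, 6.03 and 6.47 scaled TPM at day 14, 6.90 and 16.9 at day 24, and 14.5, 7.60 and 7.31 at day 42. Ugt1a7c under the IgA -/- dam was at 7.98, 6.20 and 5.65 scaled TPM at day 14, 10.8, 9.91 and 9.24 at day 24, and 8.07, 9.15 and 6.62 at day 42. It passed in no comparison (limma, log2 fold change 0.69, adjusted p = 0.156 and log2 fold change 0.54, adjusted p = 0.181 at day 24), and its 2 highest values were again the libraries that stand apart.

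Ugt1a1 (chr1:88211959-88218997), the enzyme that glucuronidates bilirubin, was at 7.05, 7.46 and 6.49 scaled TPM at day 14, 1.78 and 7.73 at day 24, and 8.12, 2.64 and 3.32 at day 42 with the B6 dam. Ugt1a1 under the IgA -/- dam was at 5.85, 4.90 and 5.51 scaled TPM at day 14, 2.94, 3.66 and 4.10 at day 24, and 4.19, 4.75 and 2.81 at day 42. With the IgA -/- dam every later library lay below those of day 14 without passing (limma, log2 fold change -0.50, adjusted p = 0.363 at day 24). With the B6 dam the libraries that stand apart were slightly above the day 14 libraries and the other 3 later libraries below them; the comparison did not pass (limma, log2 fold change -0.70, adjusted p = 0.296 at day 24, log2 fold change -0.61, adjusted p = 0.323 at day 42). Leaving out both of those libraries, a choice made after their values were seen, removes the ones that lay above day 14. The values were then log2 fold change -1.54, adjusted p = 0.00115 at day 24 by limma, where the 1 library left is assumed to vary like the other groups, and log2 fold change -1.02, adjusted p = 0.00140 at day 42, and no change is read from them.

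Ugt1a6a (chr1:88134809-88218997), which acts on small phenols, reached 1 TPM only in the 3 day 14 libraries of the IgA -/- dam, so that its lower values later are partly fixed by the minimum and support nothing. Ugt1a6a under the IgA -/- dam was at 0.976, 0.939 and 0.903 scaled TPM at day 14, 0.347, 0.524 and 0.611 at day 24, and 0.471, 0.449 and 0.376 at day 42. Ugt1a6a under the B6 dam was at 0.652, 0.786 and 0.631 scaled TPM at day 14, 0.445 and 0.648 at day 24, and 0.492, 0.556 and 0.480 at day 42. The IgA -/- dam day 14 libraries were the 3 highest of all 17 (limma, log2 fold change -0.38, SE 0.10, adjusted p = 0.0236 at day 24, log2 fold change -0.44, SE 0.10, adjusted p = 0.0110 at day 42). The day 42 call passed with each library left out in turn, and the day 24 call was lost without any day 14 library or day 24 replicate 1 (adjusted p up to 0.0654). These levels rest on 16 to 68 reads per library, and every 50-base stretch of the transcript also occurs in another gene, mostly Ugt1a7c. Ugt1a5 (chr1:88166012-88218997), at 4 to 53 reads, reached 1 TPM only with the IgA -/- dam, in all 3 libraries of day 14 and 1 of day 24. It was at 1.30, 1.46 and 1.38 scaled TPM at day 14, 2.12, 0.205 and 1.15 at day 24, and 0.450, 0.193 and 0.882 at day 42 with the IgA -/- dam and at 0.761, 0.268 and 0.334 scaled TPM at day 14, 0.544 and 0.405 at day 24, and 0.330, 0.556 and 0.352 at day 42 with the B6 dam.

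The SULT genes made up 12.3% to 24.19% of the summed level in each library. Sult1b1 (chr5:87513339-87538195), which sulfates thyroid hormones and phenols, and Sult1d1 (chr5:87554645-87569027), which acts on catecholamines and related amines in the mouse, were the most abundant and are neighbours on chromosome 5. Sult1b1 under the B6 dam was at 22.1, 23.8 and 13.02 scaled TPM at day 14, 12.2 and 58.9 at day 24, and 45.0, 10.1 and 20.6 at day 42. Sult1b1 under the IgA -/- dam was at 29.4, 18.8 and 20.7 scaled TPM at day 14, 39.8, 28.7 and 25.6 at day 24, and 13.3, 15.2 and 8.49 at day 42. With the IgA -/- dam the day 24 libraries lay above those of day 42, a difference that did not pass (limma, log2 fold change -1.29, SE 0.53, adjusted p = 0.164).

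Sult1d1 under the B6 dam was at 24.5, 27.3 and 12.4 scaled TPM at day 14, 13.8 and 41.7 at day 24, and 42.5, 13.8 and 17.9 at day 42. Sult1d1 under the IgA -/- dam was at 19.1, 12.5 and 14.26 scaled TPM at day 14, 21.2, 17.9 and 21.8 at day 24, and 22.2, 20.3 and 16.9 at day 42. The ages overlapped with both dams, and no comparison passed (limma, log2 fold change 0.24, adjusted p = 0.791 and log2 fold change 0.40, adjusted p = 0.526 at day 24).

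Sult2b1 (chr7:45729983-45784669), a cholesterol sulfotransferase, was the SULT gene that rose. Sult2b1 under the B6 dam was at 0.424, 0.597 and 0.588 scaled TPM at day 14, 2.02 and 11.6 at day 24, and 6.11, 0.967 and 2.15 at day 42. Sult2b1 under the IgA -/- dam was at 0.710, 0.477 and 0.667 scaled TPM at day 14, 4.21, 5.09 and 3.87 at day 24, and 1.66, 2.09 and 1.29 at day 42. The 6 day 14 libraries (0.424 to 0.710) lay below the 11 later ones (0.967 to 11.6). The rise to day 24 passed with the B6 dam (limma, log2 fold change 2.01, SE 0.50, adjusted p = 0.0180) and the IgA -/- dam (limma, log2 fold change 1.73, SE 0.45, adjusted p = 0.0204). The first call was lost without B6 dam day 24 replicate 2 (adjusted p = 0.264) or day 14 replicate 1, and the second without IgA -/- dam day 14 replicate 2 or 3 or day 24 replicate 2 (adjusted p up to 0.0685). With both libraries that stand apart left out, the B6 dam values were log2 fold change 1.00, adjusted p = 0.0249 at day 24 and log2 fold change 0.71, adjusted p = 0.0245 at day 42 by limma. At day 42 the full set of libraries did not pass with the B6 dam (log2 fold change 1.20, adjusted p = 0.0987) or with the IgA -/- dam (log2 fold change 0.72, adjusted p = 0.296).

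Sult6b2 (chr6:142785204-142804502) was at 1.88, 2.29 and 0.341 scaled TPM at day 14, 1.35 and 17.96 at day 24, and 2.59, 0.249 and 0.719 at day 42 with the B6 dam and at 1.95, 0.711 and 0.743 scaled TPM at day 14, 2.21, 1.36 and 3.70 at day 24, and 0.298, 1.88 and 0.685 at day 42 with the IgA -/- dam. Its value of 17.96 in B6 dam day 24 replicate 2 was far above the other 16 libraries. It passed in no comparison (log2 fold change 1.52, adjusted p = 0.189 for day 24 with the B6 dam by limma). Sult1a1 (chr7:126672865-126676432), the phenol sulfotransferase, lay between 0.276 and 1.66 scaled TPM and passed in no comparison. Sult1c2 (chr17:53829637-53846339) was at 1.33, 0.559 and 0.491 scaled TPM at day 14, 0.649 and 0.483 at day 24, and 0.666, 0.451 and 0.771 at day 42 under the B6 dam and at 0.656, 0.832 and 0.528 scaled TPM at day 14, 0.253, 0.184 and 0.768 at day 24, and 1.67, 0.767 and 1.05 at day 42 under the IgA -/- dam, with its highest value at day 42 under the IgA -/- dam. Of the 21 SULT symbols, 15 stayed below the minimum, all 8 Sult2a genes among them.

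**Figure D5:**
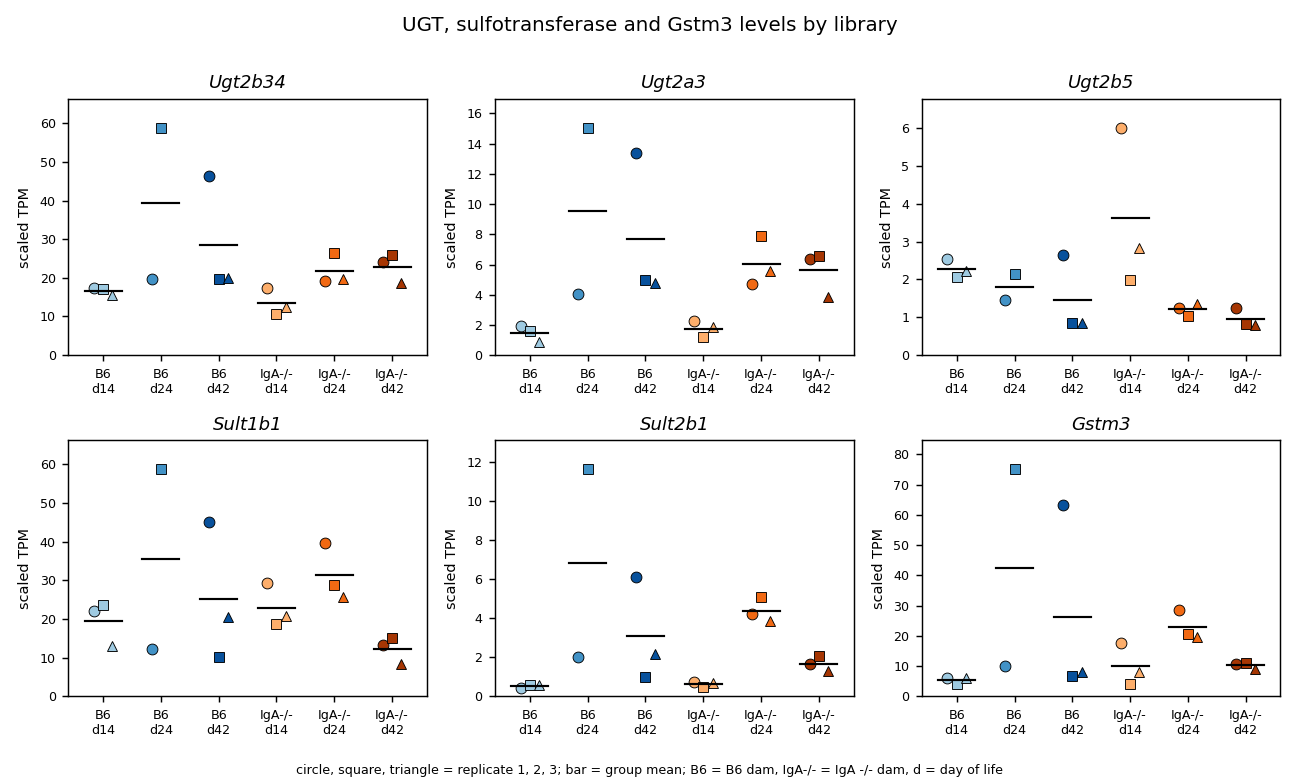
Scaled TPM (y axes, from 0) of 3 UGT genes, 2 SULT genes and Gstm3 in the 6 groups (x axes), with 1 point per library and a bar at the group mean. The squares at B6 dam day 24 and the circles at B6 dam day 42 lie far above the other points of their groups in Ugt2b34, Ugt2a3, Sult1b1, Sult2b1 and Gstm3, and Ugt2b5 has its highest point, 6.01, at IgA -/- dam day 14.

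Maternal IgA, the question of the study, was addressed by comparing dams within an age. No conjugation gene passed at day 14, where 2.91% of all genes did by limma (1.89% higher, 1.02% lower with the IgA -/- dam), and none at days 24 and 42, where 0 of 15066 did. At an unadjusted p under 0.05 the counts among the 33 genes were 2, 3 and 0, and among all genes 2882, 1443 and 241. On the deposited scale 2 conjugation genes (6.06%) passed at day 14, beside 8.68% of all genes (8.32% higher, 0.358% lower). Both were higher with the IgA -/- dam: Gsta4 (limma, log2 fold change 1.36, adjusted p = 0.0447) and Ugt1a5 (log2 fold change 1.08, adjusted p = 0.0188). A p that misses the threshold does not show that the dams were alike.

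At day 14 the gene with the smallest p was Gstp3. Its 3 IgA -/- dam libraries (6.99 to 9.63 scaled TPM) lay below the 3 of the B6 dam (12.2 to 15.0), and the difference missed the threshold (limma, log2 fold change -0.58, SE 0.17, adjusted p = 0.0863). With a pseudocount of 5 it passed (adjusted p = 0.0481 by limma); over the other alternatives the adjusted p ran from 0.0645 to 0.644. Ugt1a5 lay at 1.30 to 1.46 with the IgA -/- dam against 0.268 to 0.761 and did not pass (limma, log2 fold change 0.73, SE 0.27, adjusted p = 0.152); since it met the minimum only through libraries of the IgA -/- dam, nothing is read from this difference. Gsto1 was at 31.3 to 34.9 against 40.6 to 46.9, also without overlap (limma, log2 fold change -0.40, SE 0.19, adjusted p = 0.269), and on the deposited scale the difference was 0.026. Enterocyte genes are given beside these values: the 7 enterocyte genes summed to 768.2 to 1706 scaled TPM with the IgA -/- dam and 1177 to 3826 with the B6 dam, and 11 genes of the suckling-age enterocyte to 168.9 to 282.0 and 295.8 to 1030. The first ranges overlap and the second do not. Some lists of other cells were higher with the IgA -/- dam at day 14, also without overlap. They were 7 goblet cell genes at 1497 to 2341 against 423.1 to 678.6 scaled TPM and 7 enteroendocrine genes at 490.6 to 555.7 against 89.9 to 108.0. Also higher were 6 tuft cell genes at 6.12 to 7.64 against 1.57 to 1.83 and 8 genes of the distal small intestine at 193.3 to 232.1 against 66.9 to 135.9. Lower without overlap were 4 stem cell genes at 395.2 to 464.3 against 469.7 to 746.9 and 9 leukocyte genes at 0.706 to 1.08 against 2.46 to 9.002. So were 4 hepatocyte genes at 5.86 to 7.49 against 9.22 to 23.04. The 8 genes of the proximal small intestine overlapped, at 425.0 to 761.0 against 338.9 to 670.3. The part of all these lists in the result was not tested.

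At day 24 the smallest p belonged to Ugt2b35 (limma, log2 fold change -0.45, SE 0.13, adjusted p = 0.329), at 3.53 to 4.43 scaled TPM with the IgA -/- dam against 5.66 and 5.79. Gstm2 (log2 fold change -0.53, adjusted p = 0.491) and Ugt2b36 (log2 fold change -0.44, adjusted p = 0.516) followed. The 33 log2 differences ran from -1.02 for Sult6b2 to 0.45 for Ugt1a5, and 4 of them were above 0. Their median was -0.19, beside -0.015 for all genes. The B6 dam group held 2 libraries here, and 1 of them stands apart. The 33 genes summed to 230.4 and 594.4 scaled TPM in these 2, and to 281.9 to 299.5 with the IgA -/- dam. No direction is read from these signs. At day 42 the adjusted p by limma was 1 for all 33, with differences from -0.78 for Sult1b1 to 0.39 for Sult1c2. The test of whether the dam difference changes between ages (a moderated F test in limma) passed for no conjugation gene and for 0 of all genes; the smallest p among the 33 was 0.0486 for Gstm5, with an adjusted p of 0.494. On the deposited scale 264 of all genes (1.75%) passed that test, none of them a conjugation gene.

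Genes that supply, extend or control conjugation were counted in 7 lists. None of their genes passed between dams at any age on the scaled values of all libraries. With both libraries that stand apart left out, which leaves 1 library of the B6 dam at day 24, Abcc6, Dpep1 and Slc26a6 passed as higher with the IgA -/- dam at that age (log2 fold changes 1.17, 1.79 and 1.91; adjusted p = 0.0281, 0.0425 and 0.00883 by limma). Of all genes, 2.72% passed in that fit (2.14% higher, 0.577% lower). The counts by age that follow stand beside 13.6% of all genes at day 24 and 13.7% at day 42 with the B6 dam, and 16.9% and 16.4% with the IgA -/- dam. Of 10 genes tested for glutathione synthesis and turnover, 4 rose and none fell from day 14 to 24 with each dam. By day 42, 3 rose and 1 fell with the B6 dam and 2 rose with the IgA -/- dam. Gsr, glutathione reductase, rose in all 4 comparisons. At day 24 with the B6 dam it was at 61.0 ± 1.87 against 24.6 ± 0.705 scaled TPM (SD, n = 2 and 3; limma, log2 fold change 1.28, SE 0.12, adjusted p = 1.75e-05). Gsr under the IgA -/- dam was at 46.2 ± 2.70 against 26.0 ± 2.85 (SD, n = 3 each; limma, log2 fold change 0.81, adjusted p = 0.000439), where the deposited scale had it lower (log2 fold change -0.63, adjusted p = 0.0146). Dpep1, a brush border dipeptidase that completes glutathione breakdown, rose at day 24 with both dams (3.53 and 2.84 on the log2 scale). Its B6 dam call was lost without day 24 replicate 2 (adjusted p = 0.209 by limma), and its IgA -/- dam call in 4 of 6 fits without 1 library (up to 0.0834, without day 14 replicate 2). Gclc, the catalytic subunit of the first enzyme of glutathione synthesis, rose at day 42 with the IgA -/- dam (limma, log2 fold change 0.56, adjusted p = 0.00616).

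Among 10 genes tested for sulfate and PAPS supply, 3 rose from day 14 to 24 with each dam, in both cases Papss2, a PAPS synthase, Slc26a6, an anion exchanger, and Slc13a1, a sodium-sulfate cotransporter. Papss2 reached 49.4 ± 15.9 against 8.63 ± 7.69 scaled TPM at days 24 and 14 with the IgA -/- dam (SD, n = 3 each; limma, log2 fold change 2.64, SE 0.72, adjusted p = 0.0254), a call kept in 2 of 6 fits without 1 library (adjusted p up to 0.104, without day 14 replicate 2). With that dam Slc26a6 was kept in 4 of 6 such fits (up to 0.0623, without day 14 replicate 2) and Slc13a1 in 0 of 6 (up to 0.131, without day 24 replicate 3). With the B6 dam none of the 3 passed without day 24 replicate 2 (adjusted p = 0.488 for Papss2, 0.473 for Slc26a6 and 0.264 for Slc13a1 by limma). Papss2 and Slc26a6 were kept there in 1 of 5 fits without 1 library each, and Slc13a1 in 3 of 5. At day 42, 1 of 10 rose with the B6 dam, and 2 rose and 1 fell with the IgA -/- dam; Impad1, a phosphatase of the PAP by-product, rose with both (log2 fold change 0.57, adjusted p = 0.0176 and log2 fold change 0.62, adjusted p = 0.0108 by limma), in 3 and 4 of 6 fits without 1 library.

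In the list for UDP-glucuronate supply, 1 of 5 genes rose in each of the 4 comparisons, each time Slc35b1 (log2 fold changes 1.33 and 0.97 for the B6 dam, 0.81 and 0.76 with the IgA -/- dam). The calls of the IgA -/- dam were kept in 3 and 2 of 6 fits without 1 library (adjusted p up to 0.0727 and 0.0824 by limma). Slc35b1 is known as a nucleotide carrier of the endoplasmic reticulum, not as a maker of UDP-glucuronate. As deposited it was lower at day 24 with the IgA -/- dam (log2 fold change -0.56, adjusted p = 0.0173 by limma). Gusb, the lysosomal beta-glucuronidase that removes glucuronate, fell at day 42 with the B6 dam (log2 fold change -1.01, adjusted p = 0.00803).

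Of 12 other conjugation enzymes tested, the microsomal glutathione transferase Mgst1 fell in all 4 comparisons with day 14. With the B6 dam it was at 23.7 ± 3.62 against 36.1 ± 0.891 scaled TPM at days 42 and 14 (SD, n = 3 each; limma, log2 fold change -0.59, SE 0.12, adjusted p = 0.00322). Mgst1 under the IgA -/- dam was at 21.7 ± 1.77 against 37.3 ± 3.92 scaled TPM (SD, n = 3 each; limma, log2 fold change -0.75, SE 0.12, adjusted p = 0.000774). Its day 24 call with the B6 dam was lost with any 1 library left out (adjusted p up to 0.0870). Mgst2 rose with the B6 dam at days 24 and 42 (log2 fold change 0.90, adjusted p = 0.0350 and log2 fold change 0.95, adjusted p = 0.0144 by limma). Its day 24 call was kept in 1 of 5 fits without 1 library (adjusted p up to 0.446, without day 24 replicate 2). The day 42 call was kept in 5 of 6 (up to 0.0653, without day 42 replicate 1). Ephx1, the microsomal epoxide hydrolase, rose at day 42 with the IgA -/- dam (log2 fold change 0.98, adjusted p = 0.00981).

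Of 10 efflux transporters tested, 4 rose and 1 fell from day 14 to 42 with the B6 dam, and 3 rose and 1 fell with the IgA -/- dam. Abcc1, Abcc4 and Abcc5, which export glutathione conjugates, other organic anions and cyclic nucleotides, rose with both dams (log2 fold changes 0.54, 0.70 and 0.38 for the B6 dam, 0.60, 0.60 and 0.36 with the IgA -/- dam). None of these rises passed on the deposited scale, and under the IgA -/- dam those of Abcc4 and Abcc5 were kept in 2 and 1 of 6 fits without 1 library (adjusted p up to 0.0789 and 0.0812 by limma, both without day 42 replicate 1). Under the B6 dam Abcc5 was kept in 3 of 6 and Abcc1 in 5 of 6 (up to 0.0903 and 0.0507, both without day 42 replicate 3). Abcc6 fell with both (log2 fold change -1.07, adjusted p = 0.00218 and log2 fold change -0.94, adjusted p = 0.00598 by limma), and on the deposited scale too.

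Of 23 regulators tested, 2 rose and 4 fell at day 24 with the B6 dam and 3 rose and 2 fell with the IgA -/- dam; at day 42 the counts were 3 and 4 with the B6 dam and 2 and 4 with the IgA -/- dam. Cebpa and Cebpb, transcription factors of the C/EBP family, fell in all 4 comparisons (Cebpb at day 42: 4.96 ± 0.424 against 15.2 ± 2.29 scaled TPM with the B6 dam and 4.64 ± 0.755 against 10.5 ± 0.611 with the IgA -/- dam, SD, n = 3 each). The fall of Cebpa at day 24 with the IgA -/- dam passed in 3 of 6 fits without 1 library (adjusted p up to 0.102 by limma). Ppard, a lipid-sensing nuclear receptor, rose at day 24 with both dams (log2 fold change 1.74, adjusted p = 0.000109 and log2 fold change 1.24, adjusted p = 0.000841 by limma), and Vdr, the vitamin D receptor, at day 42 with both (log2 fold change 1.03, adjusted p = 0.000233 and log2 fold change 0.89, adjusted p = 0.00103); on the deposited scale Ppard with the IgA -/- dam had the opposite sign (log2 fold change -0.13, adjusted p = 0.519). Nr1i2, the xenobiotic receptor PXR, was lower at day 42 with the IgA -/- dam than at day 14 (log2 fold change -0.79, adjusted p = 0.0193) and than at day 24 (log2 fold change -0.85, adjusted p = 0.0450); these were kept in 2 and 1 of 6 fits without 1 library, and without IgA -/- dam day 42 replicate 1 both were lost (adjusted p = 0.0715 and 0.167).

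Among 10 tested targets of NRF2, the factor that responds to electrophiles, the directions were mixed: 3 rose and 2 fell at day 24 with the B6 dam, 3 rose and 1 fell with the IgA -/- dam, and at day 42 the counts were 2 and 2, and 2 and 1. G6pdx, the first enzyme of the pentose phosphate pathway, rose in all 4 comparisons (log2 fold changes 0.55 to 0.69). Its day 24 calls were lost without B6 dam day 24 replicate 2 (adjusted p = 0.0809 by limma) or IgA -/- dam day 14 replicate 2 (0.0511). Hmox1, heme oxygenase, fell with the B6 dam at day 42 (log2 fold change -1.06, adjusted p = 0.00277 by limma), and Me1, malic enzyme, fell at day 42 with both dams (log2 fold change -1.40, adjusted p = 0.00524 and log2 fold change -1.13, adjusted p = 0.0187), with the IgA -/- dam in 4 of 6 fits without 1 library. As deposited, G6pdx was lower at day 24 with the IgA -/- dam (log2 fold change -0.73, adjusted p = 0.00191).

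The median log2 fold changes of these lists at day 24 were 0.91 for glutathione, 0.57 for UDP-glucuronate, 0.57 for sulfate and PAPS, -0.0036 for other conjugation enzymes, 0.26 for efflux, 0.0097 for regulators and 0.66 for NRF2 targets with the B6 dam. For the IgA -/- dam they were 0.48 for glutathione, -0.0012 for UDP-glucuronate, 0.27 for sulfate and PAPS, 0.20 for other conjugation enzymes, 0.024 for efflux, 0.064 for regulators and 0.34 for NRF2 targets. At day 42 they were 0.44 for glutathione, 0.10 for UDP-glucuronate, 0.33 for sulfate and PAPS, -0.017 for other conjugation enzymes, 0.10 for efflux, -0.029 for regulators and 0.41 for NRF2 targets with the B6 dam, and 0.38 for glutathione, -0.024 for UDP-glucuronate, 0.26 for sulfate and PAPS, 0.20 for other conjugation enzymes, -0.022 for efflux, -0.083 for regulators and 0.20 for NRF2 targets with the other dam. All genes had medians between -0.04 and 0.00.

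Deposited values gave other numbers of genes that passed as higher and as lower. For the IgA -/- dam at day 24 they were 1 and 6 for glutathione, 0 and 4 for UDP-glucuronate, 1 and 7 for sulfate and PAPS, 0 and 11 for other conjugation enzymes, 0 and 9 for efflux, 0 and 21 for regulators and 0 and 7 for NRF2 targets, where 83.8% of all genes passed, 82.9% as lower. At day 42 they were 0 and 3 for glutathione, 0 and 1 for UDP-glucuronate, 0 and 4 for sulfate and PAPS, 1 and 3 for other conjugation enzymes, 0 and 4 for efflux, 0 and 12 for regulators and 0 and 2 for NRF2 targets, where 40.7% of all genes passed, 38.9% as lower. For the B6 dam they were 2 and 1 for glutathione, 1 and 0 for UDP-glucuronate, 2 and 0 for sulfate and PAPS, 0 and 2 for other conjugation enzymes, 0 and 1 for efflux, 1 and 4 for regulators and 0 and 3 for NRF2 targets at day 24, beside 8.61% of all genes. By day 42 they were 1 and 1 for glutathione, 1 and 1 for UDP-glucuronate, 1 and 0 for sulfate and PAPS, 1 and 1 for other conjugation enzymes, 0 and 1 for efflux, 2 and 4 for regulators and 0 and 2 for NRF2 targets, beside 9.11%. Without both libraries that stand apart the B6 dam splits were 2 and 1 for glutathione, 1 and 0 for UDP-glucuronate, 0 and 0 for sulfate and PAPS, 0 and 1 for other conjugation enzymes, 2 and 3 for efflux, 2 and 4 for regulators and 1 and 2 for NRF2 targets at day 24, beside 8.40% of all genes, and 2 and 2 for glutathione, 1 and 1 for UDP-glucuronate, 3 and 0 for sulfate and PAPS, 2 and 1 for other conjugation enzymes, 4 and 4 for efflux, 4 and 6 for regulators and 2 and 3 for NRF2 targets at day 42, beside 15.2%.

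Markers of other cells also differed by age beside these results. The 7 enterocyte genes summed to 1177 to 3826 scaled TPM at day 14 and 100.9 to 969.3 at day 42 under the B6 dam, and to 768.2 to 1706 and 94.7 to 220.2 under the IgA -/- dam, with Apoa4 making up 23.7% to 95.8% of the sum. Of the other genes of the list, Sis, Arg2 and Ada went the other way. From day 14 to 42 under the B6 dam the brush border disaccharidase Sis was at 2.56 to 5.06 and then 27.2 to 178.0 scaled TPM. Arg2 was at 1.496 to 2.90 and then 18.8 to 53.9, and Ada at 2.06 to 3.42 and then 11.1 to 33.0. Under the IgA -/- dam Sis was at 6.52 to 15.8 and then 26.1 to 43.5, Arg2 at 2.74 to 7.86 and then 17.6 to 34.0, and Ada at 2.29 to 2.96 and then 3.00 to 10.1. Goblet cell genes (7) summed to between 423.1 and 678.6 at day 14, and between 1994 and 2738 at day 42, under the B6 dam. Under the IgA -/- dam the ranges were 1497 to 2341 and 1883 to 2267. The 4 hepatocyte genes summed to 9.22 to 23.04 at day 14 and 2.88 to 4.19 at day 42 under the B6 dam, and the 9 leukocyte genes to at most 9.002 in any library. Enteroendocrine genes (7) were at 89.9 to 108.0 and then 235.0 to 725.2 under the B6 dam, and at 490.6 to 555.7 and then 601.5 to 734.1 under the IgA -/- dam. Stem cell genes (4) overlapped under the B6 dam, at 469.7 to 746.9 and then 614.7 to 740.9. Under the IgA -/- dam they were at 395.2 to 464.3 and then 772.6 to 840.8. Sums of these lists are given as measured, and their part in the changes of the conjugation genes was not tested.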

How the data were processed

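RNA of sorted small-intestinal epithelial cells was amplified with the SMART-seq v4 kit and made into Nextera XT libraries, per the labels' protocols. The authors deposited 1 table of TPM values by gene symbol for 17 libraries; Bowtie2, Subread, DESeq2 and the mm10 build are named per the submitters' processing notes, without versions or settings. Groups followed the titles. Multiplied by exon lengths of GENCODE M21, 93.0% to 93.9% of a library's deposited TPM values above 0 gave whole reads (within 0.01 reads or a relative 0.0001), among them those of 29 of the 33 conjugation genes; these reads give the depth, which limits low genes, and are PCR products without molecular identifiers. The other 4 (Gsto1, Gstp1, Gstp2 and Gstp3) gave no whole reads.

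TPM was divided by median-of-ratios size factors and tested with limma 3.58.1 (R 4.3.3, trend) on log2(value + 1), which understates the change of low genes. The 15066 genes that reached 1 TPM in 2 or more libraries entered the test, with a Benjamini-Hochberg adjusted p under 0.05 over them as threshold. The test was also run on simulated data, whose outcome is not given here, and nothing is read from that run. Alternatives were the deposited scale, TPM without mitochondrial genes and Gm23935, pseudocounts of 0.1 and 5, a minimum of 5 TPM or none, only the compared groups, a replicate block and each library left out. Limma-voom on the recovered reads and leaving out both libraries that stand apart were added after seeing the data. The 33 genes, the lists and the tests were chosen with earlier results of these data known. Values per library were given for the 3 highest genes of each family, the genes that passed (or the 3 smallest p between dams), and for others by range; up to 4 genes that passed per list and comparison could be named; Gstm1, Ugt1a1, Gsta3 and Sult6b2 were shown after their values were seen. Windows of 50 bases were compared between GENCODE transcripts, and promoters came from RefSeq (GRCm38.p6), with Python 3.11.15.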

Additional observations from a re-analysis of the deposited data

How the results depend on the processing

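The counts of conjugation genes that passed depended on scaling and on single libraries. Shares of all genes are given above for the deposited scale and without both libraries that stand apart. They were not counted for the other alternatives, where a move in the count cannot be told apart from a move over all genes. Between dams at day 14 the count was 2 on the deposited scale, 1 with a pseudocount of 5 and 1 with only the groups compared, against 0. From day 14 to 24 with the B6 dam it was 1 with only the groups compared, 4 without both libraries that stand apart and 3 to 17 without single libraries (3 without day 24 replicate 2, 4 without day 14 replicate 1 or 3, 17 without day 24 replicate 1), against 7. From day 14 to 42 it was 3 with a pseudocount of 5, no filter, the replicate block or limma-voom, and 2 to 5 without single libraries (2 without day 42 replicate 1, 3 without any day 14 library), against 6. Between days 24 and 42 it was 0 to 4 (4 without day 24 replicate 1), against 0. With the IgA -/- dam from day 14 to 24 it was 25 on the deposited scale, 5 with no filter, 3 with limma-voom (29 genes) and 1 to 7 without single libraries (1 without day 14 replicate 3, 2 without day 24 replicate 2, 3 without day 14 replicate 2), against 9. From day 24 to 42 it was 12 on the deposited scale, 2 without mitochondrial genes and Gm23935 and 4 with only the groups compared, against 0. From day 14 to 42 it was 10 on the deposited scale, 12 with only the groups compared and 4 without each single library in turn, against 5. The dam comparisons at days 24 and 42 and the test between ages gave 0 in each alternative run.

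Of the named gene values recomputed under each alternative, 3 changed sign, all on the deposited scale: Gsto1 between dams at day 14 (0.026), and Gstt1 (-0.088) and Gsto1 (-0.77) from day 14 to 24 with the IgA -/- dam. Gstt3 and the list genes Gsr, Slc35b1, Ppard and G6pdx also turned there on that scale, with values given beside each above. The list genes Vdr, Pgd and Lap3 turned there as well (log2 fold changes 0.77, 0.60 and 1.395 scaled, -0.65, -0.76 and -0.018 deposited). At day 42 with that dam the rises of Gsr, Gclc, Slc35b1, Impad1, Vdr and G6pdx did not pass as deposited. Their log2 fold changes were then 0.094, 0.036, 0.19, 0.054, 0.29 and 0.15 (adjusted p from 0.289 to 0.886 by limma). The cause was not tested. The replicate block used the sample numbers, which do not pair the libraries: correlations of same-numbered deviations ran from -0.64 to 0.26, and 5 of 24 were over 0.1. Low genes such as Ugt1a6a, Ugt1a5 and Sult1c2 rest on few reads, which limits what can be detected.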
